A study of Mus musculus with 3 samples.

Results

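Keratin-associated proteins, the Krtap genes of the mouse, were followed by subfamily in whole skin after cyclophosphamide, an alkylating chemotherapy drug. A UniGene cluster was taken as a member where its gene symbol starts with Krtap or where its deposited description names a keratin associated protein. Gene symbols came from exact matches of the clusters' sequence tags to reference transcripts or from a RefSeq accession in the description. The rule found 50 clusters, for 49 gene symbols, of 20595 clusters listed in any library. Of these, 47 carried a Krtap symbol, and Gm10024, Gm10228 and Gm11562 entered by description alone. Subfamilies 6, 7, 8, 16, 19, 21 and 22 formed the high glycine-tyrosine class of 15 clusters, with Gm10228 placed in subfamily 6 by its description. The other 35 clusters formed the cysteine-rich class. A total of 48 members were listed in all 3 libraries. Krtap16-1 was listed at day 1 alone, with 2 tags, and Krtap31-2 had 0, 7 and 10 tags at days 0, 1 and 2. A cluster was tested if its tags over the libraries came to at least 15, which left 48 members, 14 high glycine-tyrosine and 34 cysteine-rich. Krtap13, with 12 tags, and Krtap16-1 were not tested. Krtap31-2 passed that limit through days 1 and 2, with none of its 17 tags at day 0. No fold is given for it, although its sign enters the counts and medians below. Setting its day 0 count to a floor of 3 tags could not move those medians, since its ratio then still lies above them.

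The reference annotation holds 58 genes with a Krtap symbol, of which 46 were listed as members of their own. Of the other 12, 1 has no CATG site in its reference transcripts, 9 had none of their tags in any table, and 2 had tags inside another cluster. The cluster that holds tags of Krtap17-1 had 1584, 4010 and 2925 tags at days 0, 1 and 2, of which 3.91% match Krtap17-1, and was called higher at day 1 over day 0 at a log2 ratio of 1.40. The cluster with tags of Krtap1-4 had 626, 416 and 453 tags, of which 1.74% match that gene. Neither cluster was counted as a member, because it got no Krtap symbol by tags or RefSeq accession and its description names no keratin associated protein. A low share of exactly matching tags alone did not exclude a cluster. Krtap7-1 and Krtap21-1, with 3.74% and 1.19% of tags that match their gene alone, entered by their RefSeq accession.

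The skin came from male C57BL/6 mice, 2 months old, whose hair had been pulled 9 days before the drug was given, which starts a new growth phase of the hair follicles. The day 0 library is skin of untreated mice at that stage, and the day 1 and day 2 libraries are skin taken 1 and 2 days after 150 mg/kg cyclophosphamide into the peritoneum. The design text gives the dose per kg, while the sample labels write it as mg/km. Each time is 1 library, the sources used here do not give the number of mice behind it, and no untreated skin of days 1 and 2 was analysed here, so drug and time since hair removal cannot be told apart. Each library held 2636804 to 2859653 tags assigned to clusters, out of 5666060 to 6070058 tags kept by the authors. All p-values below compare the reads of 2 libraries, not conditions. The intervals of ratios and shares cover counting error only. Those of medians come from the spread between members, which are not replicates. In whole skin, fewer cells of a type and less RNA per cell cannot be told apart.

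Keratin-associated proteins are small, mostly single-exon proteins of the hair shaft that fill the space between keratin filaments and bind them to each other. The cysteine-rich families, called high or ultrahigh sulfur proteins, do so through disulfide bonds, and the high glycine-tyrosine families form a compact matrix that is best known from the cortex of wool. They are made late in shaft formation, above the dividing matrix of the hair bulb, after the first hair keratins. In human hair, the KRTAP5, KRTAP10 and KRTAP12 families are known mainly from the cuticle, the outer layer of the shaft, and the KRTAP1, KRTAP2, KRTAP3, KRTAP4 and KRTAP9 families mainly from the cortex.

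Each member was counted by 21-base tags that start at a CATG, the site of the enzyme NlaIII, so a transcript gives 1 tag and levels need no correction for length. The tags below are the most frequent ones of the members on which the results turn, with the CATG in capitals, and their places are on the GRCm38 build of the GENCODE annotation.
Krtap8-1, 3′ UTR, minus strand, chr16:89487432-89487452: CATGattccctgttatggtga
Krtap7-1, end of the transcript: CATGcatcacaaaaaaaaaaa
Krtap22-2, coding, minus strand, chr16:89010519-89010539: CATGctgctatggaagacttt
Krtap6-1, 3′ UTR, plus strand, chr16:89032216-89032236: CATGactctgtcacatatgct
Gm10228, 3′ UTR, minus strand, chr16:89041131-89041151: CATGtatgatgcaaagatcct
Krtap6-5, 3′ UTR, minus strand, chr16:89047325-89047345: CATGttttgatttttctatat
Krtap19-1, coding, minus strand, chr16:88869151-88869171: CATGctgtggaagatatgggt
Krtap16-3, 3′ UTR, minus strand, chr16:88962332-88962352: CATGatctatattttaaaatc
Gm11562, 3′ UTR, minus strand, chr11:99619641-99619661: CATGtgttgttcactgtttca
Krtap1-3, 3′ UTR, minus strand, chr11:99590561-99590581: CATGgaagattcttctacacg
Krtap4-2, 3′ UTR, minus strand, chr11:99634198-99634218: CATGacattaaaatccactaa
Krtap4-6, 3′ UTR, minus strand, chr11:99665246-99665266: CATGaatgaggtgaaccccaa
Krtap9-1, 3′ UTR, plus strand, chr11:99874357-99874377: CATGacaaatttgtgttgttt
Krtap12-1, 3′ UTR, plus strand, chr10:77721184-77721204: CATGgatgtcctggctgcagg
Krtap10-4, 3′ UTR, minus strand, chr10:77826126-77826146: CATGgcttcaataaacgtttt

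The leading tag matched exactly 1 reference gene in 47 of the 50 members, and it lay in a 3′ UTR in 33 and in or partly in coding sequence in 15. The leading tag of Krtap10-4 matches 2 genes, the other being Gm3285, so its reads cannot be split between them. For Krtap7-1 and Krtap21-1 the leading tag is in no reference transcript, and these clusters were named through their RefSeq accession. The Krtap7-1 tag equals the last 11 bases of the Krtap7-1 transcript followed by 10 adenines, and no other reference gene gives that tag when its transcripts are extended by adenines. Krtap6-1 and Gm10228, whose encoded proteins both have 78 residues and a glycine plus tyrosine share of 69.2%, were told apart by different tags. Of all Krtap tags, 97.3% to 97.7% lay at the CATG site nearest the 3′ end, against 69.1% to 71.1% of all tags in the tables.

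The class names were set against the proteins translated from the GENCODE coding sequences. The 14 high glycine-tyrosine genes on chromosome 16 encode proteins with a median of 63.5% glycine plus tyrosine (range 29.9% to 69.2%) and 8.67% cysteine. Krtap7-1, at 29.9%, and Krtap8-1, at 47.5%, are the lowest of them. Krtap16-1, placed in that class by its subfamily number, lies on chromosome 11 and encodes 20.1% cysteine against 3.78% glycine plus tyrosine, which goes against the class name. The cysteine-rich genes of chromosomes 10 and 11 encode 20.2% to 38.8% cysteine, and those of chromosome 7, all Krtap5, 35.1% to 41.5%. Krtap28-10, alone on chromosome 1, has the highest share, 42.9%. By contrast, the 8 genes counted as cysteine-rich on chromosome 16 (subfamilies 11, 13, 14, 15, 24, 26 and 27) encode only 4% to 12.7% cysteine. For 8 members the larger of the 2 shares puts the gene in the other class. They are Krtap16-1, Krtap5-3, with 39.3% glycine plus tyrosine against 35.1% cysteine, and 6 of these chromosome 16 genes, Krtap11-1 and Krtap27-1 being the other two.

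**Figure D1:**
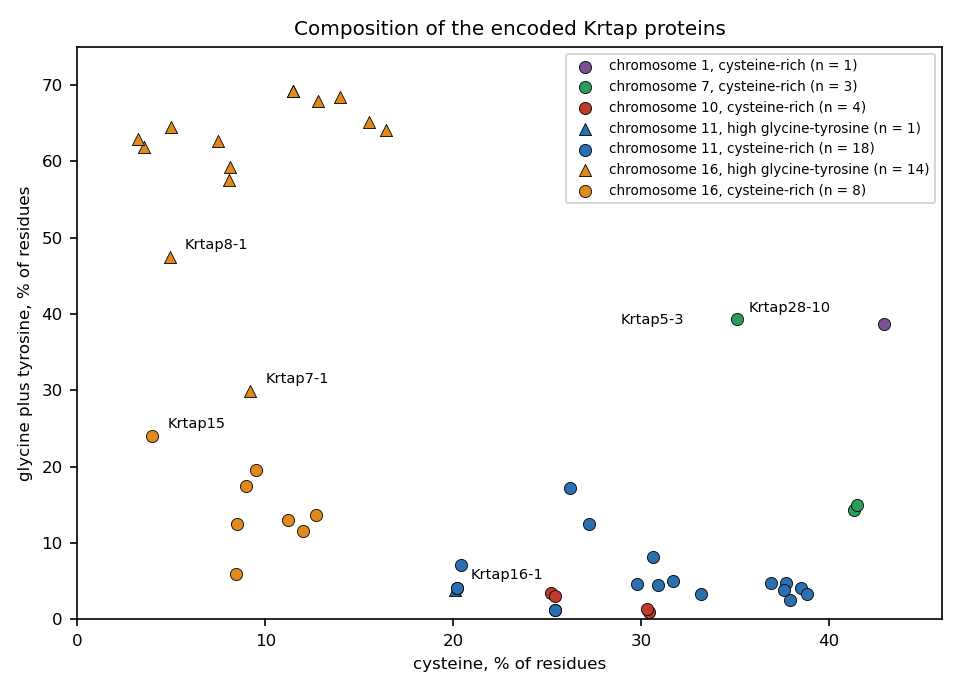
Cysteine share against glycine plus tyrosine share of the residues encoded by each of the 49 genes, in percent, with colour for the chromosome and shape for the class. The chromosome 16 genes of the cysteine-rich class sit at 4% to 12.7% cysteine, apart from the cysteine-rich genes of the other chromosomes, and Krtap16-1 sits among the latter.

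Krtap transcripts made up 6.71% of the tags in the table at day 0 (183402 tags), 8.78% at day 1 (251179 tags) and 9.28% at day 2 (244817 tags). As a share of all tags kept by the authors these are 3.04%, 4.14% and 4.32%. The high glycine-tyrosine class held 58.0% of the Krtap tags at day 0 (95% Wilson interval 57.8% to 58.2%), 53.0% at day 1 (52.8% to 53.2%) and 54.3% at day 2 (54.1% to 54.5%). This share was highest at day 0 and the intervals do not overlap, although they cover counting error only. Because the share is taken within the Krtap tags, it does not depend on how the libraries are scaled.

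A few genes carried much of this signal. The 5 clusters with the most tags, Krtap8-1, Krtap7-1, Gm11562, Krtap22-2 and Krtap19-2, held 41.2%, 48.5% and 43.9% of all Krtap tags at days 0, 1 and 2. Krtap8-1, of the high glycine-tyrosine class, had the highest level of all at day 0 and day 1, with 7651 and 13574 CPM, and 10431 at day 2. CPM are tags per 1000000 tags in the table, scaled by TMM, edgeR's correction for composition. Krtap7-1 was at 4809, 10563 and 10894 CPM, and so passed Krtap8-1 at day 2. The other three had day 0 levels of 6753 CPM for Krtap22-2, 4263 for Krtap19-2 and 3408 for Gm11562, and Krtap22-2 was thus above Krtap7-1 at day 0. At the other end, 6 members reached no more than 4.78 CPM in any library, namely Krtap4-8, Krtap9-5, Krtap13, Krtap16-1, Krtap27-1 and Krtap31-2. The median level was 2442, 2294 and 2622 CPM in the high glycine-tyrosine class at days 0, 1 and 2. In the cysteine-rich class it was 470, 731 and 760.

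**Figure D2:**
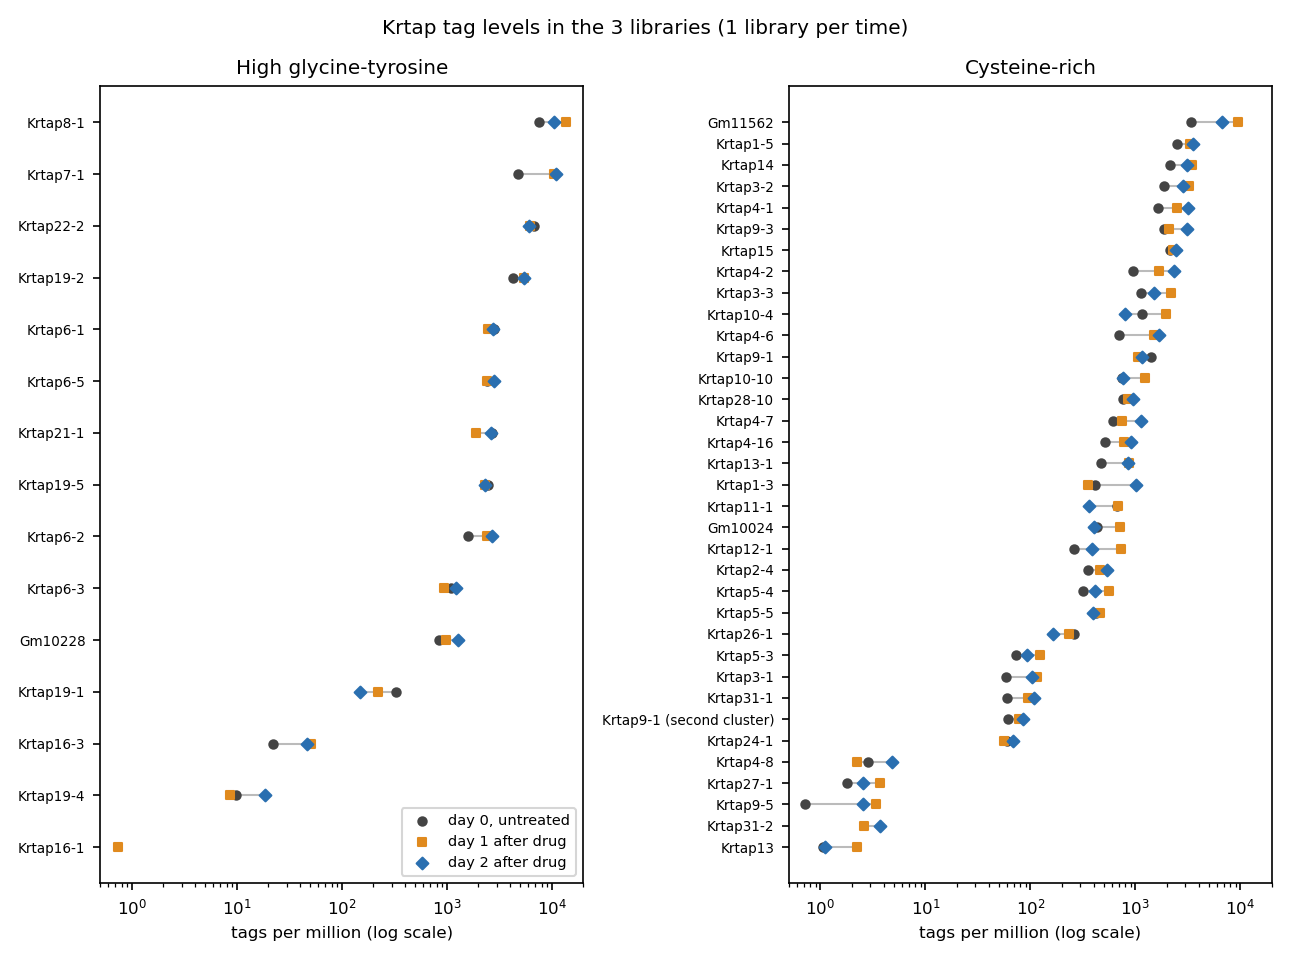
Level of each member in the 3 libraries, in CPM on a log scale, one row per member, sorted by mean level within each class. Krtap8-1, Krtap7-1 and Gm11562 lie to the right, and a member with no tag in a library has no point there.

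Day 1 against day 0 showed cysteine-rich genes mostly above their untreated level, and high glycine-tyrosine genes spread to both sides of it. Of 34 cysteine-rich members, 29 had a positive log2 ratio and 5 a negative one, with a median of 0.68 (95% order-statistic interval 0.29 to 0.81). Of 14 high glycine-tyrosine members, 6 were positive and 8 negative, with a median of -0.07 (-0.21 to 0.83), so the 2 intervals overlap. Over all 13812 clusters tested the median was -0.02, with 48.9% positive, and over the 3318 clusters at a mean of 50 or more CPM it was 0.05. Summed over the members, the cysteine-rich class stood at 27376, 43936 and 41135 CPM at days 0, 1 and 2, and the high glycine-tyrosine class at 37817, 49457 and 48790. The summed day 1 over day 0 ratio was 0.68 for the cysteine-rich class and 0.39 for the high glycine-tyrosine class on the log2 scale. In the latter, sum and median differ in sign, the sum being led by Krtap8-1 and Krtap7-1. The cysteine-rich sum is led by Gm11562, a member by description alone, which went from 3408 CPM at day 0 to 9521 at day 1. Scaling by the tags in the table lowers all these day 1 over day 0 log2 ratios together, since the shift is -0.13, and with it Krtap15 (0.10) and Krtap11-1 (0.03) turn negative.

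A member was called changed at 2-fold or more with an adjusted p of 0.001 or less in the exact conditional binomial test, Benjamini-Hochberg adjusted over all clusters. At day 1 over day 0, 5 of 48 members were called higher and 0 lower, where 1.44% of all clusters were called higher and 1.35% lower. Without the 2-fold limit, 32 of 48 members had a counting interval wholly above 0, 9 wholly below and 7 across it. The 32 include Krtap31-2, which had no tag at day 0 and passed the tag limit through the later libraries. Of all clusters, 15.3% had an interval wholly above 0 and 15.5% wholly below, a share that grows with the number of tags, and 43 members had 150 tags or more.

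At day 2 over day 0, 5 members were called higher and 1 lower, where 3.41% of all clusters were called higher and 3.03% lower. The cysteine-rich median was 0.56 (0.36 to 0.81), with 28 of 34 positive, and the high glycine-tyrosine median was 0.27 (-0.10 to 0.90), with 9 of 14 positive. The median over all clusters was 0.01. This comparison uses the same day 0 library as the one before. At day 2 over day 1, 1 member was called higher and 1 lower, where 1.80% of all clusters were called higher and 1.10% lower. The medians were then 0.03 (-0.39 to 0.17) for the cysteine-rich class, with 17 of 34 positive, and 0.10 (-0.15 to 0.38) for the high glycine-tyrosine class, with 10 of 14 positive. Over all clusters it was -0.02, and scaling by the tags in the table raises these ratios by 0.13.

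The number of calls depends on the rule. At 1.5-fold in place of 2-fold, 20 members were higher and 0 lower at day 1 over day 0 (4.08% and 3.70% of all clusters), 17 higher and 3 lower at day 2 over day 0 (5.71% and 6.18%), and 2 higher and 5 lower at day 2 over day 1 (3.45% and 3.11%). Animals were also assumed to vary with a coefficient of variation of 0.2 or 0.4. The rule was then edgeR's exact test at an adjusted p of 0.05 or less, with no fold limit. At 0.2 the 1 call left is Krtap1-3, higher at day 2 over day 1. All clusters then gave 0.116% higher and 0.0941% lower at day 1, 1.06% and 0.688% at day 2 over day 0, and 0.413% and 0.239% at day 2 over day 1. At 0.4 no member was called, where 0.0362% of clusters were higher and 0.00724% lower at day 2 over day 0, and 0.0145% higher at day 2 over day 1. With only tags that match 1 gene exactly, 4 members were higher and 0 lower at day 1 (1.54% and 1.40% of clusters), 5 higher and 1 lower at day 2 over day 0 (3.39% and 3.19%), and 2 higher and 0 lower at day 2 over day 1 (1.87% and 1.18%). The last 2 comparisons then include a call of Krtap21-1 from the 1.19% of its tags that are left.

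**Figure D3:**
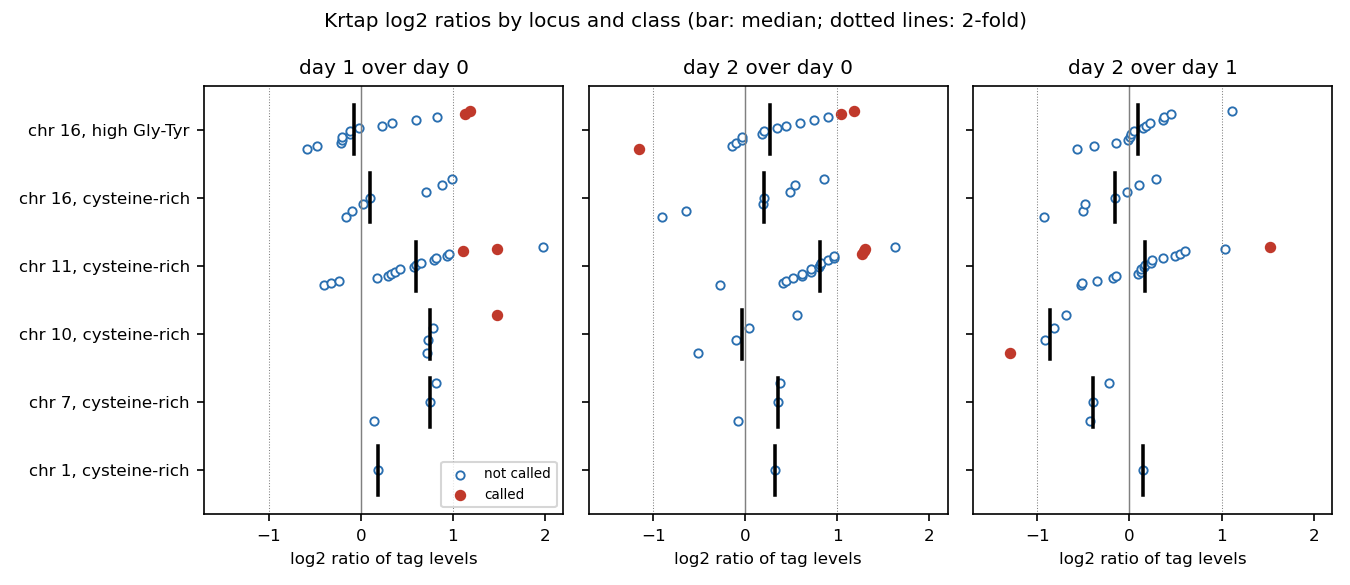
Log2 ratio of each tested member in the 3 comparisons, grouped by chromosome and class, with filled points for members called changed, a bar for the median and dotted lines at 2-fold. Krtap31-2 has no point because it was not listed at day 0, but is in the median of its group. In the last panel the 4 chromosome 10 genes lie below 0, and most chromosome 11 genes above it.

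Within the high glycine-tyrosine class, Krtap7-1 and Krtap16-3 were called higher in both comparisons with day 0, and Krtap19-1 was called lower at day 2. Krtap7-1 had 13529, 28408 and 29659 tags at days 0, 1 and 2. It was high in both treated libraries, rose by a log2 ratio of 1.14 (1.11 to 1.16) at day 1 and stood at 1.18 (1.15 to 1.21) at day 2 over day 0. Krtap16-3, a little-expressed gene, had 63, 138 and 126 tags and was called higher at 1.19 (0.76 to 1.65) and 1.04 (0.60 to 1.51), with adjusted p of 4e-07 and 1.8e-05 in the exact binomial test. Krtap19-1 had 933, 595 and 407 tags, a lower count in each later library. It fell by 1.15 at day 2 over day 0 (-1.32 to -0.98), the single call of a lower member against day 0, after -0.58 at day 1.

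The remaining high glycine-tyrosine genes did not reach 2-fold in the comparisons with day 0. Krtap8-1 had 21525, 36508 and 28397 tags, highest at day 1, with log2 ratios of 0.83 (0.80 to 0.85) and then 0.45 (0.42 to 0.47). Krtap22-2, on the other hand, had 18998, 16689 and 16691 tags, nearly level, with ratios of -0.12 and -0.14. Krtap19-2 had 11993, 14512 and 14704 tags and a ratio of 0.34 at both times. Krtap19-5, of the same subfamily, had 7007, 6170 and 6324 tags and ratios of -0.12 and -0.10. Krtap19-4, with 28, 23 and 51 tags, had intervals of -1.08 to 0.63 and 0.22 to 1.63. Thus 1 of 4 Krtap19 genes was positive at day 1, and their summed tags gave 0.16.

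The Krtap6 genes, the largest high glycine-tyrosine family here, were not uniform either. Krtap6-1 had 7959, 6592 and 7530 tags, with ratios of -0.21 and -0.03 at days 1 and 2 over day 0. Krtap6-2 had 4495, 6514 and 7293 tags, with 0.60 and 0.75. These neighbours in number thus stood on opposite sides of 0 at day 1. Krtap6-3 had 3075, 2559 and 3371 tags (-0.20 and 0.18), and Krtap6-5 had 6870, 6467 and 7645 (-0.02 and 0.20). Gm10228, described as a member of subfamily 6, had 2386, 2670 and 3492 tags, with 0.23 and 0.60. Against day 1, all 5 were higher at day 2 without reaching 2-fold, and their summed log2 ratio was 0.22 (0.20 to 0.25). Krtap21-1, with 7526, 5167 and 7138 tags, was lowest at day 1, at -0.48 (-0.53 to -0.43), and -0.03 at day 2.

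Several members have more than 1 CATG site with tags, which allows a comparison within the gene. A total of 22 members had 2 or more sites with at least 50 tags. Between their 2 sites with the most tags, the counting intervals overlapped in 13 members and lay apart in 9 at day 1 over day 0, and the same counts held at day 2 over day 0. The ratios had the same sign in 15 of 22 at day 1 and in 14 of 22 at day 2. Krtap7-1 had its calls from site 1, the tail-spanning tag and its variants, at 1.16 and 1.22 for days 1 and 2 over day 0. Its site 2 had 601, 955 and 699 tags, which gives 0.73 (0.58 to 0.88) and 0.27 (0.11 to 0.43). Site 3, in coding sequence, had 145, 118 and 99 tags, at -0.23 (-0.60 to 0.13) and -0.50. The 3 sites of this gene thus differ in direction, and site 1 holds 96.3% of its tags. For Krtap6-5 the split was 1787, 1191 and 1422 tags at site 2, with -0.52 and -0.28, against 0.12 and 0.34 at site 1. Krtap8-1 showed 91, 442 and 117 tags at site 2, a day 1 ratio of 2.35 (2.02 to 2.69), where site 1 gave 0.82. Krtap21-1 had 53, 51 and 132 tags at site 2, at 1.36 for day 2 over day 0 against -0.05 at site 1. Krtap19-5 had 23, 80 and 76 tags at site 2, at 1.86 for day 1 against -0.13 at site 1. Krtap4-2, called higher at day 2, had 59, 75 and 62 tags at site 2, at 0.12 (-0.42 to 0.66) for day 2 over day 0 against 1.34 at site 1. Gm11562 had 156, 252 and 258 tags at site 2, at 0.76 for day 1 (0.46 to 1.05), below the interval of 1.46 to 1.53 at site 1. Krtap11-1, Krtap3-2, Krtap26-1 and Krtap28-10 also had sites with opposite signs and intervals apart at day 2 over day 0. Krtap11-1 had 0.01 at site 3 against -0.94 at site 1, and Krtap3-2 had -0.61 at site 2 against 0.63. Krtap26-1 had 0.85 at site 2 against -0.69, and Krtap28-10 had -0.57 at site 3 against 0.35. What sets the sites apart was not tested.

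**Figure D4:**
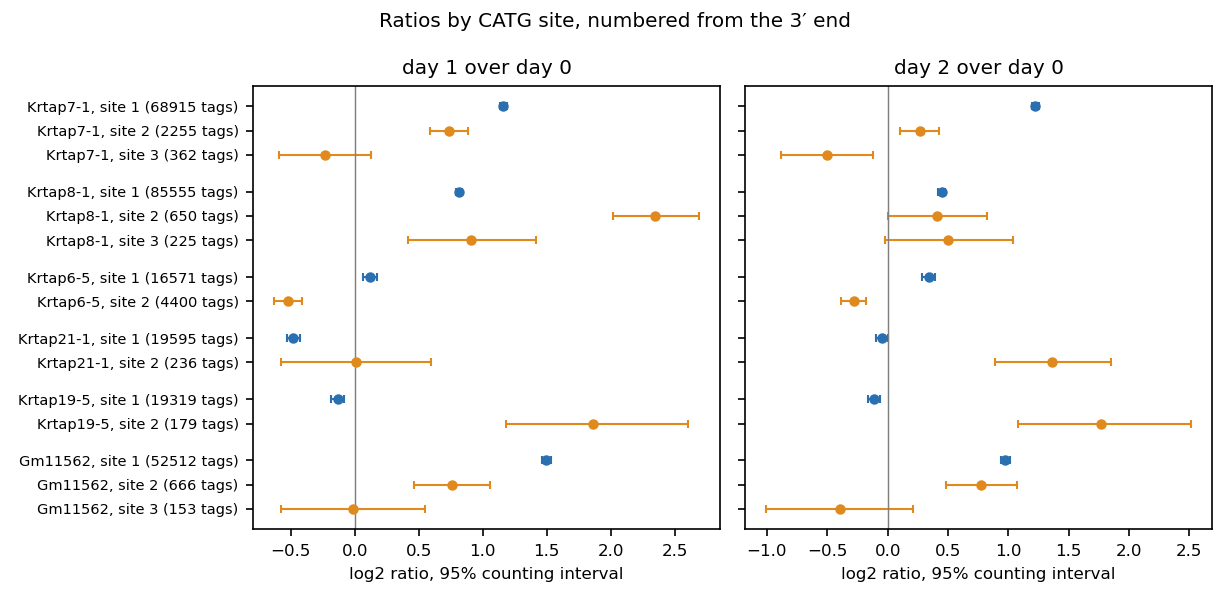
Log2 ratio with its 95% counting interval at each CATG site, numbered from the 3′ end, for Krtap7-1, Krtap8-1, Krtap6-5, Krtap21-1, Krtap19-5 and Gm11562. Site 1 is in blue and sites farther from the end in orange. In Krtap7-1 the ratio at day 1 goes from 1.16 at site 1 to -0.23 at site 3.

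Among the cysteine-rich genes, the 19 clusters of chromosome 11 had a median of 0.60 (0.29 to 0.95) at day 1 and 0.81 (0.61 to 1.27) at day 2 over day 0, with 18 of 19 positive at day 2. The most abundant of them, Gm11562, had 9587, 25606 and 18138 tags. It was called higher at day 1, at 1.48 (1.45 to 1.52), and stood at 0.97 (0.93 to 1.00) at day 2 over day 0, just short of 2-fold. Krtap1-3 followed another course, with 1165, 947 and 2756 tags. It was slightly below day 0 at day 1, at -0.23, and rose by 1.29 (1.19 to 1.39) at day 2 over day 0 and by 1.52 (1.42 to 1.63) over day 1. Its family member Krtap1-5, which had 6976, 8969 and 9690 tags, gave 0.43 and 0.52 against day 0.

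The Krtap4 genes, ultrahigh sulfur proteins of 31.7% to 38.8% cysteine here, each had their highest level at day 2. All 6 tested members were positive at day 2 over day 0, from 0.71 to 1.31, and all 6 were positive at day 2 over day 1, while 5 of 6 were positive at day 1. Krtap4-2 had 2668, 4495 and 6389 tags, with 0.82 at day 1 and a called 1.31 (1.24 to 1.37) at day 2. Krtap4-6 had 1952, 4031 and 4541 tags and was called at both times, at 1.11 (1.03 to 1.19) and 1.27 (1.19 to 1.34). In both genes the count was higher in each later library. Krtap4-1, the most abundant of the family, had 4593, 6654 and 8678 tags, with 0.60 and 0.97. Krtap4-16, with 1455, 2075 and 2461 tags, gave 0.58 and 0.81. Krtap4-8, with 8, 6 and 13 tags, had an interval from -0.63 to 2.22 at day 2 over day 0, so it adds little.

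The other chromosome 11 families were more modest. Krtap3-2 had 5262, 8752 and 7817 tags, with 0.80 and 0.62. Krtap3-3 had 3199, 5839 and 4105 tags (0.93 and 0.41) and Krtap3-1 166, 308 and 282 (0.95 and 0.81), and all 3 Krtap3 genes were positive at day 1 and negative at day 2 over day 1. Krtap9-3 had 5275, 5675 and 8380 tags, level at day 1 (0.17) and at 0.72 at day 2. Krtap9-1 was the 1 cluster on this chromosome below day 0 at both times, with 3928, 2851 and 3137 tags and ratios of -0.40 and -0.28. A further cluster of the same gene, whose tag lies farther from the 3′ end, had 174, 209 and 230 tags and ratios of 0.33 and 0.45, so the clusters named Krtap9-1 differ in direction. Krtap2-4 had 995, 1228 and 1473 tags (0.37 and 0.61), and Krtap31-1 had 170, 256 and 292 (0.65 and 0.83).

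The 4 clusters of chromosome 10 were all highest at day 1 and lower at day 2 than at day 1, while against day 0 they stood on both sides at day 2, from -0.51 to 0.56. Together they had 7244, 12449 and 6401 tags, a summed log2 ratio of 0.85 (0.80 to 0.89) at day 1 and -0.98 (-1.02 to -0.93) at day 2 over day 1. Krtap12-1 had 738, 1966 and 1056 tags. It was called higher at day 1, at 1.48 (1.36 to 1.603), and was at 0.56 (0.43 to 0.70) at day 2 over day 0. Krtap10-4 had 3222, 5295 and 2188 tags, with 0.78 at day 1 and -0.51 at day 2, and it fell by 1.29 (-1.37 to -1.22) at day 2 over day 1, the single lower call of that comparison. The few tags of Krtap10-4 that match it alone, 0.224% of the cluster, do not show this and give 0.14. Krtap10-10 had 2081, 3288 and 2069 tags, with 0.72 and 0.04, and Gm10024 had 1203, 1900 and 1088, with 0.72 and -0.10.

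The Krtap5 genes of chromosome 7, ultrahigh sulfur proteins, were also highest at day 1, with 2271, 3069 and 2450 tags in sum, but at day 2 the sum was still above day 0, at 0.16 (0.07 to 0.24). Krtap5-4 had 891, 1496 and 1121 tags, with ratios of 0.81 and 0.38 against day 0, and Krtap5-5 had 1175, 1243 and 1075, with 0.15 and -0.08. All 3 were positive at day 1 and negative at day 2 over day 1, the sum giving -0.34 (-0.42 to -0.27). Krtap28-10, the chromosome 1 gene, had 2126, 2306 and 2578 tags, close to level at 0.18 and 0.33.

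On chromosome 16, the genes counted as cysteine-rich but with under 15% cysteine had lower medians than the other cysteine-rich genes, with wide intervals. Over the 7 tested, the median was 0.10 (-0.16 to 0.99) at day 1, 0.21 (-0.91 to 0.86) at day 2 over day 0 and -0.16 (-0.93 to 0.29) at day 2 over day 1, with 2 of 7 positive in the last. The high glycine-tyrosine genes of the same chromosome had -0.07, 0.27 and 0.10, with 10 of 14 positive in the last, and the difference between these groups was not tested. The 10 cysteine-rich clusters with 15% to 30% cysteine had 0.76 and 0.62, and the 17 with over 30% had 0.60 and 0.71. All 14 tested high glycine-tyrosine genes lie on chromosome 16, but so do the 7 tested genes with under 15% cysteine. The class difference at day 1 thus overlaps with one between chromosome 16 and the other loci without being the same. Over all 21 tested members of chromosome 16 the day 1 median was 0.03. Krtap14 and Krtap15, which overlap on opposite strands and were told apart by tags in 1 gene each, had 5963, 9302 and 8431 tags (0.71 and 0.55) and 5998, 6144 and 6705 tags (0.10 and 0.21). Krtap13-1, with 1321, 2333 and 2313 tags, gave 0.89 and 0.86. Krtap11-1, which is known to bind hair keratins, had 1898, 1848 and 979 tags, level at day 1 and at -0.91 (-1.02 to -0.80) at day 2 over day 0. Krtap26-1, with 727, 623 and 450 tags, was at -0.64 at day 2, and Krtap24-1, with 169, 151 and 187, was at 0.19. Krtap27-1, with 5, 10 and 7 tags, had intervals that span 0.

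Promoter sequence was described for the 42 of 49 symbols with an entry in the RefSeq promoter table (GRCm38.p6, from 250 bases before to 50 after the gene start). The letters TATAAA, on either strand, are in 34 of 42 windows (81.0%), against 13.6% of 32851 promoters of the same length. The classes are alike in this, with 11 of 14 high glycine-tyrosine and 23 of 28 cysteine-rich windows. Between 45 and 16 bases before the start, on the gene's strand, 23 of 42 hold it (54.8%), against 2.14% of all. The letters CTTTGAA, the core that LEF1 and TCF proteins are known to bind, are in 8 of 42 windows (19.05%), 1 high glycine-tyrosine and 7 cysteine-rich, against 5.14% of all. The 60 bases before the start are shown for 4 Krtap4 genes, all with positive ratios at day 2 over day 0, and for Krtap8-1 and Krtap22-2, abundant genes with unlike ratios. All are on the minus strand, and TATAAA is in capitals.
Krtap4-1, chr11:99628240-99628299: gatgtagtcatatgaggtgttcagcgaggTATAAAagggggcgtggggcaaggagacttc
Krtap4-2, chr11:99635085-99635144: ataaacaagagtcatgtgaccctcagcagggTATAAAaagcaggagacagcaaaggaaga
Krtap4-6, chr11:99665961-99666020: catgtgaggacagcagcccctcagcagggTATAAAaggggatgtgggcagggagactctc
Krtap4-7, chr11:99644090-99644149: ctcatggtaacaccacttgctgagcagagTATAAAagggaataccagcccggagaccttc
Krtap8-1, chr16:89487953-89488012: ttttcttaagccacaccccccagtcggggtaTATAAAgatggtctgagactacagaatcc
Krtap22-2, chr16:89010760-89010819: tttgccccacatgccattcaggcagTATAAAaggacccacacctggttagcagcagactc
The motif starts 31, 29, 31, 31, 29 and 35 bases before the gene start in these 6, which were picked among the 23 members that hold it near the start.

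Hair keratins, the filament proteins that keratin-associated proteins bind, were read from the same libraries for comparison. Of 16 on the list 13 were tested, and Krt85, an early keratin of the shaft, was given no cluster. Krt31, a cortex keratin, had 4496, 6168 and 5061 tags, and Krt86 had 2374, 4351 and 3414, so both were highest at day 1, at 0.52 and 0.94. Krt32, a cuticle keratin, had 1546, 3596 and 2399 tags and was the 1 keratin called at day 1, higher at 1.28 (1.20 to 1.37). In that comparison 1.44% of all clusters were called higher and 1.35% lower. By day 2 over day 0, 0 were called higher and 2 lower, against 3.41% and 3.03% of all clusters. Krt35, an early keratin of the matrix and cuticle, had 3968, 2747 and 901 tags and fell by 2.09 (-2.20 to -1.99), and Krt36 had 582, 659 and 224 and fell by 1.33. At day 2 over day 1, 3 keratins were called lower, Krt35, Krt36 and Krt87, against 1.10% of all clusters. The list's medians were 0.82, 0.22 and -0.52 in the 3 comparisons, and those of all 48 tested Krtap members 0.50, 0.51 and 0.07.

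Genes of shaft assembly, 18 tested of 21, had medians of 0.37 at day 1 and -0.25 at day 2 over day 0, and -0.65 at day 2 over day 1. Gprc5d, a receptor of hard keratinizing cells, had 3420, 7125 and 4233 tags and was called higher at day 1 (1.12). Selenbp1, a selenium-binding protein, was called lower in all 3 comparisons, with 713, 279 and 83 tags. Padi3 and Tgm1, which modify and crosslink hair proteins, and Tchh were the other calls, lower at day 2 over day 1, at -1.39, -1.34 and -1.12. In that comparison 1.10% of all clusters were called lower. Padi3 had 1454, 1888 and 731 tags, Tgm1 506, 895 and 358, and Tchh, trichohyalin of the inner root sheath, 18337, 19613 and 9150.

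Transcription factors and signalling genes of the shaft, 16 tested of 18, had medians of -0.18, -0.62 and -0.56. Hoxc13, which is known to control hair keratin and Krtap genes in the mouse, had 548, 407 and 308 tags, a lower count in each later library, at -0.36 and -0.78. Foxn1, the gene of the nude mouse, had 250, 289 and 173 tags, at 0.27 and -0.48. Neither was called. The cluster named Lef1 had 2 tags at day 0 alone, too few to be tested. As 4557 of 20595 clusters got no gene name, this count does not give the level of Lef1. None of the list was called at day 1, where 1.44% of all clusters were called higher and 1.35% lower. At day 2 over day 0, 0 were called higher and 4 lower, against 3.41% and 3.03% of all clusters. Msx2, a homeobox gene of the hair matrix, had 1274, 929 and 560 tags and fell by 1.14. Gata3, a factor of the inner root sheath, had 1134, 772 and 523 and fell by 1.07, Nfil3 had 231, 183 and 68 and fell by 1.71, and Dlx4 had 59, 50 and 19 and fell by 1.56. At day 2 over day 1, Nfil3, Ovol1 and Cux1 were called lower, against 1.10% of all clusters. Ovol1 had 373, 496 and 230 tags, and Cux1 323, 403 and 199.

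**Figure D5:**
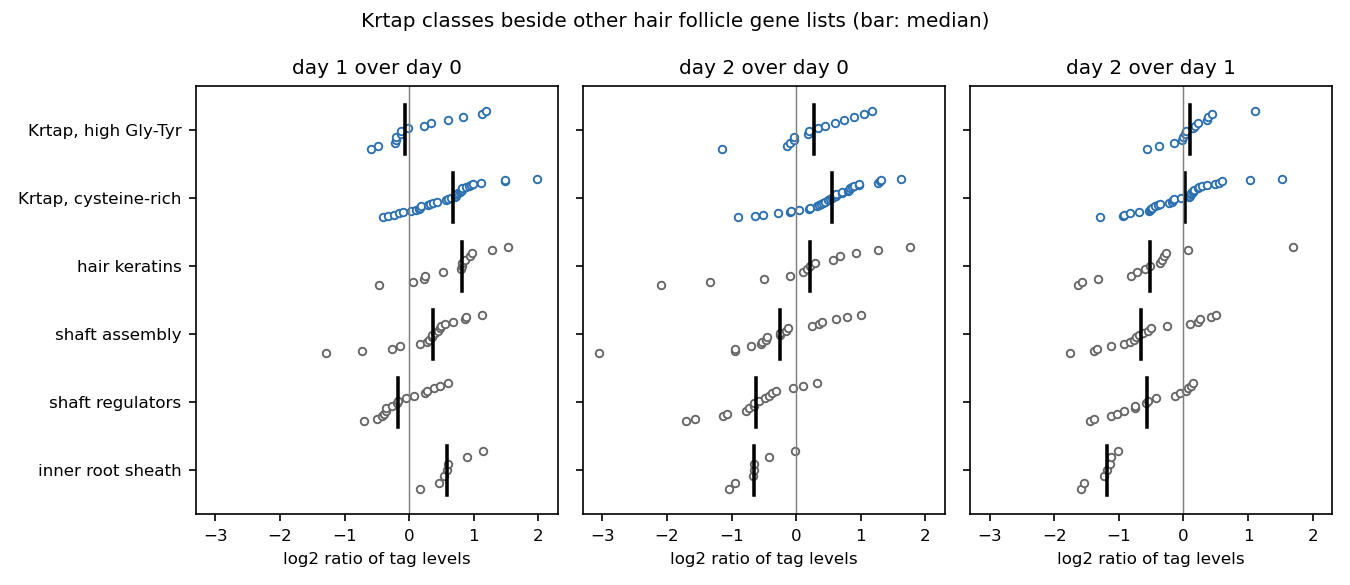
Log2 ratios of the 2 Krtap classes beside hair keratins, shaft assembly genes, shaft regulators and 7 inner root sheath genes in the 3 comparisons, each point a gene and each bar a median. At day 2 over day 1 the medians are 0.10 and 0.03 in the Krtap classes and between -0.52 and -1.18 in the other lists. Tchh is in 2 of the lists, and Krtap31-2 has no point.

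Markers of other cells moved with these libraries. The summed level of 7 of 7 inner root sheath markers was 42107, 62071 and 24579 CPM at days 0, 1 and 2. The 9 hair shaft markers with a cluster, of 11 listed, summed to 14199, 24295 and 15983, and 6 of 6 epidermal markers to 11263, 15159 and 14284. The epidermal sum is mostly Krt10 and Krt5, at 6339 and 4712 CPM at day 0. Krt1, Lor, Krt14 and Flg were at 5.33, 40.2, 82.1 and 85.0 CPM there. Skeletal muscle markers, 6 of 6, summed to 7792, 11873 and 16495, with 4 of 6 called higher at day 2 over day 0. In that comparison 3.41% of all clusters were called higher and 3.03% lower. Macrophage markers, 5 of 6, summed to 176, 170 and 380, with 3 of 5 called higher at day 2 over day 0, and red cell markers, 4 of 5, to 1809, 1619 and 140, with Hba-a2 at 0 tags at day 2. Dermal papilla markers, 4 of 4, summed to 29.5, 18.97 and 23.1, with Corin at 0 tags at day 2. Of these Hhip, with 33, 6 and 7 tags, was called lower at both days against day 0, and Alx4, with 21, 25 and 45 tags, had 0.31 and 1.13 without a call. The Krtap, hair shaft, epidermal and skeletal muscle sums were all lowest at day 0. The part of these other cells in the Krtap ratios was not tested.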

How the data were processed

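Tags were made from whole mouse skin by cutting oligo(dT)-bound cDNA at CATG with NlaIII and sequencing 17 bases beyond it, per the labels' protocols. The deposited tables give, for each UniGene cluster, the authors' tag count and a TPM value, per 1000000 kept tags, with each tag, its site number and its copies. No tag is listed with fewer than 2 copies, so an unlisted tag is not shown to be absent. The sequencing centre's own gene database served for annotation, per the series' design text; aligner and build: not given in the sources used here. Counts were used for all results and TPM values to recover the number of kept tags.

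Clusters were named where at least 80% of the tags that match reference transcripts (GENCODE release M21) and 50% of all tags match 1 gene. Otherwise a gene was taken from shared tags or a RefSeq accession. Libraries were scaled by TMM (edgeR 4.0.16, R 4.3.3), with 0.5 tags added before log2 ratios. With 1 library per group, the quasi-likelihood test has no replicates to work with, so the main test was the exact conditional binomial test (two-sided), Benjamini-Hochberg adjusted over 13812 clusters with 15 or more tags. It was tested on simulated data. Ratio intervals are exact (Clopper-Pearson) at 95%, and those of shares are Wilson intervals. DESeq2 1.42.0 size factors were an alternative scaling. The members and gene lists were chosen with earlier results of these data known.

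The text names every Krtap cluster called in any comparison, every high glycine-tyrosine cluster with 15 or more tags, and in each cysteine-rich subfamily the cluster with the most tags and, from 150 tags, those with the highest and lowest day 2 over day 0 ratio. Of the fixed lists of shaft regulators, keratins and assembly genes it names every gene called plus Hoxc13, Foxn1, Lef1, Krt85, Krt31 and Krt86. Krtap4-8, Krtap9-5, Krtap13, Krtap16-1, Krtap31-2 and a further Krtap9-1 cluster were named after their values were seen. So were the markers Hba-a2, Corin, Hhip and Alx4 and those of the epidermis. A class by RefSeq protein could not be had, and the translated GENCODE coding sequence took its place.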

Additional observations from a re-analysis of the deposited data

How the results depend on the processing

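The median ratios of both classes kept within their intervals under every scaling, filter, pseudocount, tag choice and class rule tried. For the high glycine-tyrosine class at day 1 over day 0 they ran from -0.20 to 0.04, which spans 0, and for the cysteine-rich class from 0.55 to 0.71. Counts of called members moved with the rule. At 1.5-fold they were 20 higher at day 1, 17 higher and 3 lower at day 2 over day 0, and 2 higher and 5 lower at day 2 over day 1. With an assumed coefficient of variation of 0.2, and the separate rule given above for it, 0 were higher at day 1. There were then 0 higher and 0 lower at day 2 over day 0 and 0 lower at day 2 over day 1. With 0.4 the count was 0 throughout. With exactly matching tags alone, 2 were higher and 0 lower at day 2 over day 1. By construction this removes the Krtap7-1 tail tag, the leading Krtap21-1 tag and the shared Krtap10-4 tag. It leaves 3.74%, 1.19% and 0.224% of the tags of these 3 clusters, so their values under this rule rest on small remnants. Krtap10-4 then reversed to 0.39 at day 2 over day 0 and 0.14 at day 2 over day 1, Krtap7-1 reversed to -0.45 at day 2 over day 1 and lost its calls (0.60 and 0.15 against day 0), and Krtap21-1 reversed to 0.0093 at day 1 and was called higher at day 2 (1.36). Scaling by tags in the table reversed Krtap15 at day 1 to -0.031 and left Krtap4-6 uncalled (0.98). The high glycine-tyrosine share at days 0, 1 and 2 was 53.8%, 47.1% and 46.9% with exact tags, 55.7%, 51.0% and 52.7% without the most abundant cluster of each class, 54.7%, 47.0% and 48.0% without Krtap7-1, 61.1%, 59.0% and 58.2% without the members named by description, 57.3%, 52.0% and 53.5% with the clusters partly matched to Krtap1-4 and Krtap17-1, and 65.9%, 60.5% and 61.7% with classes by coding sequence. Day 0 was highest in each of these 6, the last 4 chosen after seeing the data. No paired analysis was possible because each group is 1 library, and for the same reason no library could be left out. Depth limits members such as Krtap4-8 and Krtap19-4, whose day 1 over day 0 intervals span 0.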
